A study of Mus musculus with 6 samples.

Results

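The Slc25a genes encode the mitochondrial carriers, the largest family of membrane proteins that move metabolites, nucleotides, cofactors and ions across the inner membrane of mitochondria. The genes described here are the protein-coding rows of the deposited count table whose symbol begins with Slc25a, without Slc25a1, Slc25a13, Slc25a15 and Slc25a20, which left 40 of 20107 rows. The rule goes by symbol and uses no measured value, but it was written with earlier results of these data known, and 2 of the 4 genes it leaves out, Slc25a1 and Slc25a20, were called higher in HFHC (values at the end). The livers came from wild type male C57BL/6N littermates (Envigo) aged 16 weeks. The HFHC group (3 mice, replicates 1, 2 and 3) had been fed a high-fat, high-calorie fructose food together with a high-fructose drink from 8 weeks of age, for 8 weeks. The Chow group (3 mice, replicates 7, 8 and 9) stayed on chow over the same time. Total RNA depleted of ribosomal RNA was sequenced from whole liver, and the comparison asks how the HFHC regimen changes hepatic gene expression.

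A carrier of this family is built from repeats of a pair of membrane helices and usually exchanges a substrate on one side of the membrane for another on the other side. In hepatocytes such exchange links the cytosol to the respiratory chain, the citric acid cycle, the urea cycle and fatty acid oxidation. It supplies ADP and phosphate for ATP synthesis, and coenzyme A, NAD and iron for enzymes of the matrix. Most carriers are made in the cytosol and brought into the inner membrane by a translocase of their own.

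Slc25a18, Slc25a41, Slc25a52 and Slc25a54 had no row under these symbols in the count table and could not be analysed here. Library totals ran from 30096409 to 30871297 counts in HFHC and from 26767416 to 27339613 counts in Chow (exact permutation test, two-sided p = 0.1, the smallest that 3 against 3 libraries allow). Levels are CPM (counts scaled to the library total) on library sizes scaled by the trimmed mean of M values (TMM), and 3 counts stood for 0.0954 to 0.114 CPM. The first principal component of all tested genes took up 46.6% of the variance, with the diets on opposite sides. The second held 16.6% and set Chow replicate 8 apart, at -30.36 against -3.58 to 11.94 for the other 5 libraries, so results that turn on this library are also given without it. The 8 hepatocyte markers summed to 92957 to 96531 CPM in HFHC and 84147 to 104149 CPM in Chow, and none of them passed the test. Each log2 fold change sets HFHC against Chow, so that a positive one means a higher level in HFHC, and is given ± its SE (standard error). Adjusted p values are those of edgeR (quasi-likelihood F test, Benjamini-Hochberg over 14896 genes), and a gene under 0.05 is named as called.

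In brief, 2 of the 37 carriers that the rule kept and that could be tested were called, and both fell. Slc25a48, which carries choline into mitochondria, fell to 13.6 ± 2.00 CPM in HFHC livers, against 20.4 ± 2.99 CPM in Chow livers (SD, n = 3 each). Slc25a37, the iron carrier mitoferrin 1, fell to 42.2 ± 5.32 CPM in HFHC livers, against 55.6 ± 2.94 CPM in Chow livers. None of the 37 was called higher. At an unadjusted p under 0.05, 6 were higher and 10 lower, together 43.2% of the 37. Among all genes tested this share was 22.2% (10.8% higher and 11.5% lower). Over all 14896 genes tested, 6.67% were called (3.38% higher and 3.3% lower), so 5.41% of the carriers is close to the share among all genes. Other settings are named below where they move a call, and their own shares of all genes called were 6.7% with RLE size factors, 6.68% with upper-quartile ones, 4.67% without the count filter, 8.09% with DESeq2, 6.4% with limma-voom, 10% with its sample weights, 5.98% with GC and length trends taken out and 1.89% at a threshold of 0.01. Fits without 1 library called 3.34%, 3.29% and 4.55% of genes without HFHC replicate 1, 2 or 3, and 2.38%, 7.09% and 3.01% without Chow replicate 7, 8 or 9.

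Promoter windows are given here for 4 carriers on which the results turn. Slc25a48 was called, Slc25a30 had the largest SD of log2 CPM among tested carriers, and Slc25a47 and Slc25a29 lie next to each other on chromosome 12 at very different levels. Each window runs from 250 bases before to 50 bases after the annotated start (RefSeq, GRCm38.p6), 5′ to 3′ on the strand of the gene. Capitals mark matches, on either strand, to any of 7 motifs. The letters TATAAA stand for the box bound by the TATA-binding protein, CCAAT for the box of the same name, GGGCGG for the GC box, CACGTG for the E-box and AGGTCA for a nuclear receptor site. The letters CCGGAAG stand for the core bound by GABPA, and GCATGCG for the core bound by NRF-1.
Slc25a48, chr13:56438105-56438404, plus strand: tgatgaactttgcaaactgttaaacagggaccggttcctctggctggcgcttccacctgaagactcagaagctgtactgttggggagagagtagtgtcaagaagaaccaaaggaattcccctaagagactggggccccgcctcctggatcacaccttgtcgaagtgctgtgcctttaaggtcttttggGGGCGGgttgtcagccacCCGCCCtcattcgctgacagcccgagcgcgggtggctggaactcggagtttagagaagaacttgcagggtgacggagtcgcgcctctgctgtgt
Slc25a30, chr14:75786988-75787287, minus strand: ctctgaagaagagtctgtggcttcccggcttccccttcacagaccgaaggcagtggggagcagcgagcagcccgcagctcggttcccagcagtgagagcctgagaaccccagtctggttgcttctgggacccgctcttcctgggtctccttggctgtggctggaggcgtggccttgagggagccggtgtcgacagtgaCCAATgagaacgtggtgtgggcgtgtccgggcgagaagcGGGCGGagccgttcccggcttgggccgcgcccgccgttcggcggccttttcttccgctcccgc
Slc25a47, chr12:108850879-108851178, plus strand: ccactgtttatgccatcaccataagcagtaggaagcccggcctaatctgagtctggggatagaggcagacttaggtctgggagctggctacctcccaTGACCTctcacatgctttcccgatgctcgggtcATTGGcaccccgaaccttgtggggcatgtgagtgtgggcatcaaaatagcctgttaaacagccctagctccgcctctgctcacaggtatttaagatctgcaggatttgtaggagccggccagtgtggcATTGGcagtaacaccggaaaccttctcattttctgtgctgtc
Slc25a29, chr12:108835827-108836126, minus strand: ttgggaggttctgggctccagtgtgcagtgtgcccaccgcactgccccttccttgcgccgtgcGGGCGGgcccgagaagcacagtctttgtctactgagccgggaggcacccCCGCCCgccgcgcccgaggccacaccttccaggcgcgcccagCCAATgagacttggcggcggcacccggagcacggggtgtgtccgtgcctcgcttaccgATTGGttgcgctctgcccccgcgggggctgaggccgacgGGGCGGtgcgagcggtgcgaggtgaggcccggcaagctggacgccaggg

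The windows of Slc25a48, Slc25a30 and Slc25a29 held GC boxes, and that of Slc25a47 held none but a nuclear receptor site and a pair of CCAAT boxes. GC content was 72.3% in the window of Slc25a29, 66.7% in that of Slc25a30, 56.3% in that of Slc25a48 and 53.3% in that of Slc25a47. Of the 30 carriers with a window in the table, 27 (90%) held a GC box, against 46.3% of 17491 protein-coding genes and 35.7% of all 32851 windows. A CCAAT box was present in 15 (50%), against 39% of protein-coding genes and 37.4% of all windows. None of the 30 held TATAAA, which 13.3% of protein-coding genes and 13.6% of all windows did. The E-box was found in 4 (13.3%), against 7.9% of protein-coding genes and 7.15% of all windows. In the same order, the nuclear receptor site was found in 4 (13.3%, against 14.5% and 16.3%). The GABPA core was found in 5 (16.7%, against 11.9% and 8.86%) and the NRF-1 core in 1 (3.33%, against 4.48% and 3.58%). Carrier windows had a median GC content of 59.8%, against 56.3% for protein-coding genes. A GC box is made of G and C alone, and the part of GC content in the share of windows with a GC box was not tested. These matches describe letters in a window and are not evidence of binding.

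Levels of different genes are compared as CPM per kilobase, using the length of the principal coding transcript in GENCODE M21. Slc25a47, a carrier expressed mainly in liver, and Slc25a5, which exchanges ADP for ATP, led the carriers that the rule kept. Slc25a47 stood at 290 ± 122 CPM per kilobase in HFHC and 182 ± 27.3 in Chow, and Slc25a5 at 247 ± 12.0 in HFHC and 212 ± 8.32 in Chow (SD, n = 3 each). Slc25a47 exceeded Slc25a5 on this scale in HFHC replicate 2 (430 against 245 CPM per kilobase) and in Chow replicate 7 (210 against 209) and lay below it in the other 4 livers, so their order is within the spread between livers. With lengths from all annotated exons Slc25a5 came first.

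Next in level stood Slc25a3, the phosphate carrier, at 152 ± 2.17 CPM per kilobase in HFHC and 152 ± 6.87 in Chow, and Slc25a39, which brings glutathione into mitochondria, at 132 ± 3.86 in HFHC and 134 ± 5.83 in Chow. The dicarboxylate carrier Slc25a10 stood at 78.8 ± 11.1 in HFHC and 63.6 ± 6.96 in Chow. Slc25a23, which exchanges ATP-Mg for phosphate, stood at 59.9 ± 5.48 in HFHC and 70.1 ± 3.17 in Chow. Slc25a10 ranked above Slc25a23 in HFHC and below it in Chow, where Slc25a25 (64.2 CPM per kilobase) also stood above Slc25a10. On the mean of both diets these 6 led the 40 carriers that the rule kept and held 69.9% of the summed level per kilobase. The same 6 led with lengths from all annotated exons. No level per kilobase is given for the 4 genes left out. Of these, Slc25a15 had the highest CPM, at 370 ± 33.9 in HFHC and 447 ± 44.8 in Chow. The order of the 40 carriers was nearly the same in both diets, with a rank correlation of 0.992 across genes, which are not replicates.

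**Figure D1:**
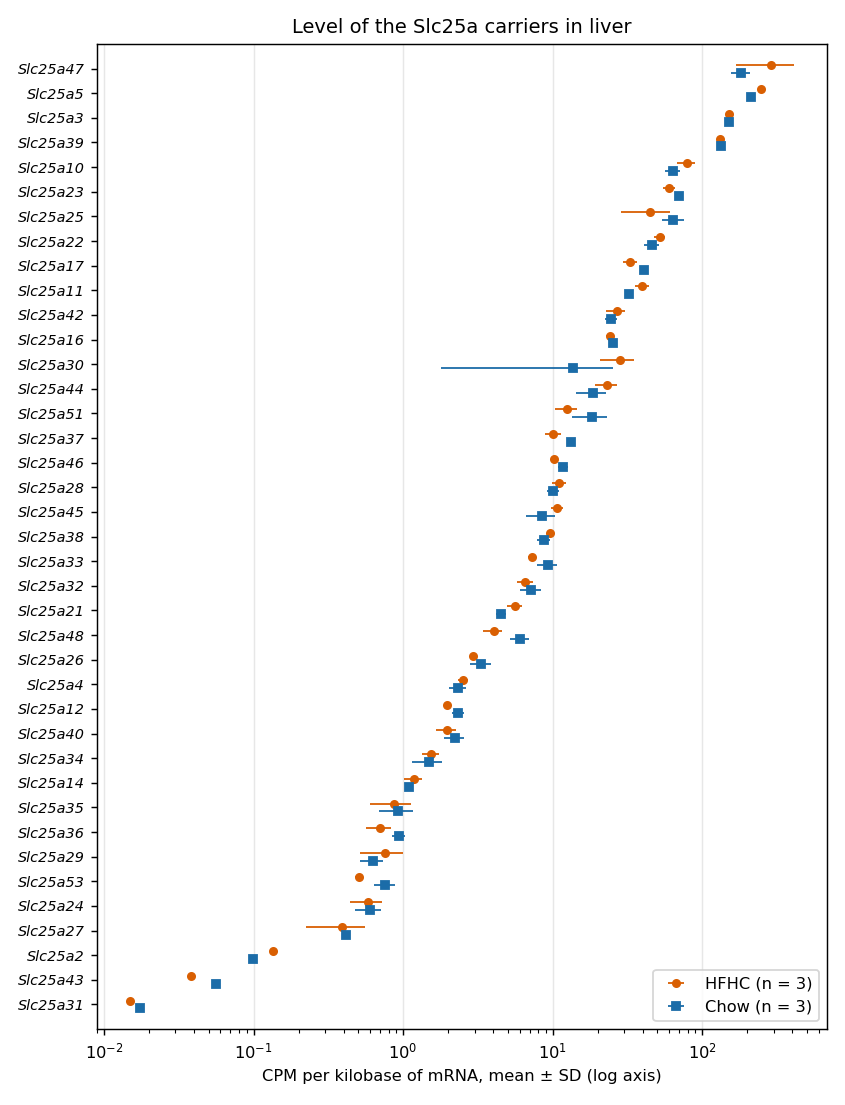
Level of 39 carriers on a log axis, as CPM per kilobase of mRNA, mean ± SD of 3 livers per diet (HFHC circles, Chow squares; no SD is drawn for the 3 carriers below the count filter). Slc25a47 and Slc25a5 stand at the top, Slc25a31 at the bottom, and the symbols of the diets lie close together for most carriers except Slc25a30.

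At the low end, 3 carriers had too few counts to be tested. Slc25a31, an ADP/ATP carrier of the testis, had 3 counts in HFHC and 3 in Chow, each summed over 3 libraries. Slc25a43 had 4 counts in HFHC and 5 in Chow, and Slc25a2, a second ornithine carrier, had 17 in HFHC and 11 in Chow. At these counts no difference between the diets was detectable.

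Among the 37 tested carriers, 18 had a log2 fold change above 0 and 19 below it, with a median of -0.02 beside -0.003 over all tested genes. The median size of the change, regardless of sign, was 0.22 in carriers and 0.16 in all tested genes, and 21 carriers had a change under 0.25 in size. The libraries of the diets did not overlap in 13 carriers (35.1%), 4 higher and 9 lower in HFHC, and this held for 27.8% of all tested genes. At an unadjusted p under 0.05 there were 16 carriers (43.2%), 6 higher and 10 lower, beside 22.2% of all tested genes. Summed over the 40 carriers, levels were 2484 to 3004 CPM in HFHC and 2472 to 2577 CPM in Chow, with overlapping libraries (exact permutation p = 0.4, adjusted p = 0.5 over 5 library measures).

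**Figure D2:**
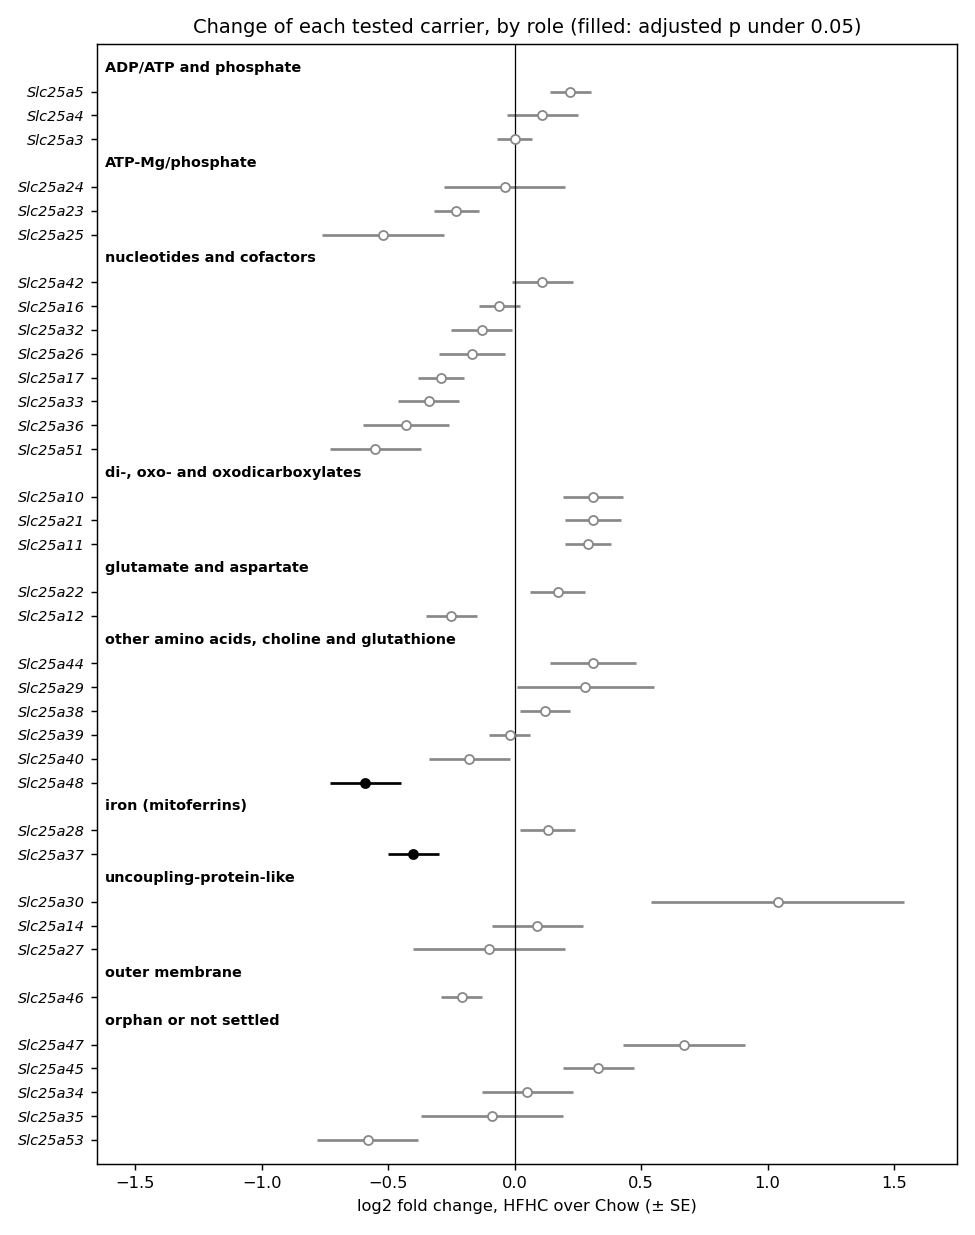
Log2 fold change of HFHC over Chow ± SE for 36 tested carriers, grouped by role; filled symbols mark an adjusted p under 0.05 in edgeR's quasi-likelihood test. Slc25a48 and Slc25a37 are the filled symbols, and Slc25a30 has the largest change (1.04) and the widest error (0.50).

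The gene Slc25a48 occupies bases 56438355 to 56474239 of chromosome 13 (mm10), on the plus strand. Its level was 15.3, 11.4 and 14 CPM in HFHC livers, against 21.6, 17.0 and 22.6 CPM in Chow livers. Every HFHC liver lay below every Chow liver, and the lowest Chow liver was replicate 8. The log2 fold change was -0.59 ± 0.14 (edgeR adjusted p = 0.0393). The call held in all 8 other settings of scaling, filter and test, with adjusted p values of 0.00377 to 0.0469. It was lost when HFHC replicate 1 (adjusted p = 0.0566), 2 (0.105) or 3 (0.0846) or Chow replicate 7 (0.133) or 9 (0.131) was left out, and it held without Chow replicate 8 (0.0142).

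Slc25a37 lies on chromosome 14 at 69241848 to 69285112 (minus strand) and supplies iron for heme and iron-sulfur clusters, above all in red cell precursors. It stood at 41.4, 47.9 and 37.4 CPM in HFHC livers, against 52.2, 57.3 and 57.3 CPM in Chow livers, with no overlap. The log2 fold change was -0.40 ± 0.10 (edgeR adjusted p = 0.0471). The call was lost with upper-quartile size factors (0.0525), without the count filter (0.0621), and without HFHC replicate 1 (0.143) or 3 (0.103) or Chow replicate 7 (0.0963), 8 (0.0880) or 9 (0.145). It shares 6.33% of its exonic bases with antisense transcripts, and the sources used here do not say whether counting used strand. In all, 11 carriers share exonic bases with a gene on the opposite strand. The share was larger for Slc25a35 (31.3%), Slc25a33 (14.9%), Slc25a11 (8.9%), Slc25a46 (7.06%) and Slc25a10 (6.6%).

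Slc25a28, mitoferrin 2, is the iron carrier of tissues other than the red cell lineage. It stood at 17.5, 18.6 and 14.9 CPM in HFHC livers, against 16.8, 14.1 and 15.6 CPM in Chow livers, which overlap (0.13 ± 0.11, edgeR adjusted p = 0.546). Per kilobase Slc25a37 stood at 10.1 ± 1.27 in HFHC and 13.3 ± 0.703 in Chow. Slc25a28 stood at 11.1 ± 1.22 in HFHC and 10.1 ± 0.893 in Chow. On the mean of both diets Slc25a37 was above Slc25a28 with either length. The means were 11.7 against 10.6 with the principal transcript, and 8.13 against 4.34 with all annotated exons. In HFHC alone, with the principal transcript, Slc25a28 stood above Slc25a37. On the log2 scale the ratio of Slc25a37 to Slc25a28 (CPM, not per length) was 1.31 ± 0.06 in HFHC and 1.84 ± 0.20 in Chow (SD, n = 3 each). The ratios of the diets did not overlap, with an exact permutation p of 0.1, the smallest possible, and an adjusted p of 0.3 over the 6 carrier pairs compared.

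Whole liver holds other cells, and in such samples fewer cells of a type and less RNA per cell cannot be told apart. Of the 8 erythroid markers in the table, 5 were tested and all 5 had a log2 fold change above 0. The 8 markers summed to 273 to 321 CPM in HFHC and 255 to 279 CPM in Chow, with overlap (exact permutation p = 0.2, adjusted p = 0.333 over 5 library measures). Hba-a1, a hemoglobin chain, was called higher (0.37 ± 0.08, edgeR adjusted p = 0.0278). That call was lost without HFHC replicate 1 (0.0574), 2 (0.0921) or 3 (0.0522), without Chow replicate 7 (0.128) or 9 (0.0770), and with trends on GC content and length taken out (0.141). The red cell anion exchanger Slc4a1 was at most 0.160 CPM in any liver. The 9 Kupffer cell and macrophage markers summed to 308 to 374 CPM in HFHC and 260 to 306 CPM in Chow, without overlap. The exact permutation p was 0.1, the smallest possible, with an adjusted p of 0.25 over the 5 library measures. None of the 9 was called. The part of these cells in the level of Slc25a37 was not tested.

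None of the 3 tested carriers of ADP, ATP and phosphate was called, and all 3 had a log2 fold change at or above 0. Slc25a5 stood at 293, 303 and 322 CPM in HFHC livers, against 259, 254 and 274 CPM in Chow livers, without overlap. Its change of 0.22 ± 0.08 did not pass (edgeR adjusted p = 0.131). Slc25a4, the ADP/ATP carrier of heart and muscle, was low, and averaged 4.86 ± 0.374 CPM over the HFHC livers and 4.51 ± 0.600 CPM over the Chow livers (0.11 ± 0.14). Slc25a3 stood at 245, 242 and 249 CPM in HFHC livers, against 238, 239 and 257 CPM in Chow livers. Its log2 fold change was 0.00 ± 0.07, the smallest of the tested carriers. Slc25a3, Slc25a5, Slc25a36 and Slc25a47 had counts that were not whole in any library (tolerance 0.015). In all, 10 carriers were further than 0.05 from a whole count in at least 1 library, Slc25a40 by up to 0.441 and Slc25a22, Slc25a23, Slc25a25, Slc25a39 and Slc25a44 by at most 0.110. How such counts arose is not known from these sources. The distance from a whole count sets no limit on how uncertain the levels of these 10 carriers are.

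The ATP-Mg/phosphate carriers, which set the size of the adenine nucleotide pool in the matrix, had log2 fold changes below 0 in all 3 tested members, with none called. Slc25a23 stood at 211, 212 and 180 CPM in HFHC livers, against 223, 241 and 242 CPM in Chow livers, without overlap (-0.23 ± 0.09, edgeR adjusted p = 0.171). It passed with the GC and length trends taken out (-0.29, adjusted p = 0.0428). Slc25a25 stood at 88.0, 190 and 164 CPM in HFHC livers, against 243, 174 and 217 CPM in Chow livers, and the diets overlapped. Its log2 fold change of -0.52 ± 0.24 (adjusted p = 0.246) became -0.25 without HFHC replicate 1, the lowest liver. Slc25a24 averaged 1.99 CPM in HFHC livers and 2.04 CPM in Chow livers, and its change of -0.04 turned positive without HFHC replicate 1 (0.14), without Chow replicate 9 (0.11) and with the trends taken out (0.02).

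Of 9 tested carriers of other nucleotides and cofactors, 2 had a log2 fold change above 0 and none was called. Slc25a17, the peroxisomal carrier of coenzyme A and related nucleotides, stood at 53.0, 54.2 and 64.0 CPM in HFHC livers, against 67.0, 73.6 and 69.2 CPM in Chow livers. Its diets did not overlap, and the change of -0.29 ± 0.09 (edgeR adjusted p = 0.0941) passed without HFHC replicate 3 (-0.38, adjusted p = 0.0357) and with limma-voom sample weights (-0.33, 0.0329). Slc25a51, the carrier that brings NAD into mitochondria, stood at 48.2, 65.7 and 51.2 CPM in HFHC livers, against 74.7, 62.8 and 104 CPM in Chow livers. HFHC replicate 2 lay above Chow replicate 8, so the diets overlapped. The change of -0.55 ± 0.18 (adjusted p = 0.110) passed without Chow replicate 8 (-0.69, 0.0359) and with DESeq2 (-0.54, 0.0164). Without Chow replicate 9, the highest liver, it was -0.32 (adjusted p = 0.3).

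The pyrimidine nucleotide carriers Slc25a33 and Slc25a36 were both lower in every HFHC liver than in any Chow liver, and neither was called. Slc25a33 averaged 13.8 ± 0.889 CPM in the HFHC livers and 17.4 ± 2.57 CPM in the Chow livers (-0.34 ± 0.12, edgeR adjusted p = 0.128). Slc25a33 shares 14.9% of its exonic bases with an antisense gene. Slc25a36 averaged 3.64 ± 0.680 CPM in the HFHC livers and 4.91 ± 0.496 CPM in the Chow livers (-0.43 ± 0.17, adjusted p = 0.167), from counts that were not whole. The coenzyme A carriers Slc25a42 (0.11 ± 0.12) and Slc25a16 (-0.06 ± 0.08), the folate carrier Slc25a32 (-0.13 ± 0.12) and the S-adenosylmethionine carrier Slc25a26 (-0.17 ± 0.13) had log2 fold changes close to their SE and overlapping diets.

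Carriers of dicarboxylates and oxoacids had log2 fold changes above 0 in all 3 members, in every alternative setting tried, and none was called. Slc25a11, which exchanges 2-oxoglutarate for malate in the malate-aspartate shuttle, stood at 68.9, 59.9 and 75.0 CPM in HFHC livers, against 57.5, 53.8 and 55.2 CPM in Chow livers. Every HFHC liver was above every Chow liver (0.29 ± 0.09, edgeR adjusted p = 0.101). Slc25a10 stood at 143, 185 and 150 CPM in HFHC livers, against 118, 145 and 123 CPM in Chow livers (0.31 ± 0.12, adjusted p = 0.158), and HFHC replicate 1 lay just below Chow replicate 8. The change of Slc25a10 was 0.19 without HFHC replicate 2 and 0.41 without Chow replicate 8 (adjusted p = 0.0759). Slc25a21, the oxodicarboxylate carrier of lysine and tryptophan breakdown, averaged 14.6 ± 1.73 CPM in the HFHC livers and 11.8 ± 0.916 CPM in the Chow livers, without overlap (0.31 ± 0.11, adjusted p = 0.143).

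Neither tested carrier of glutamate and aspartate was called. Slc25a22, a glutamate carrier, stood at 149, 157 and 132 CPM in HFHC livers, against 113, 142 and 134 CPM in Chow livers, with overlap (0.17 ± 0.11, edgeR adjusted p = 0.390), and the change was 0.08 without Chow replicate 7. Slc25a12, the aspartate-glutamate carrier of muscle and brain, averaged 12.5 ± 0.251 CPM in the HFHC livers and 14.9 ± 1.34 CPM in the Chow livers, without overlap (-0.25 ± 0.10, adjusted p = 0.170).

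Among 6 tested carriers of other amino acids, choline and glutathione, Slc25a48 was the called member, and 3 had a log2 fold change above 0. Slc25a44, which carries branched-chain amino acids, stood at 83.5, 91.8 and 66.0 CPM in HFHC livers, against 49.1, 68.0 and 78.0 CPM in Chow livers (0.31 ± 0.17, edgeR adjusted p = 0.334). The livers of both diets were interleaved, and the change was 0.14 without Chow replicate 7 and 0.20 without HFHC replicate 2. Slc25a38, the glycine carrier that feeds heme synthesis, had a log2 fold change of 0.12 ± 0.10. The glutathione carriers Slc25a39 (-0.02 ± 0.08) and Slc25a40 (-0.18 ± 0.16) were not called, and their log2 ratio of levels (CPM, not per length, with the uncertain counts of Slc25a40) was 5.36 ± 0.25 in HFHC and 5.2 ± 0.15 in Chow, with overlap. Slc25a29, the carrier of basic amino acids, is described with its neighbour below.

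Slc25a46, an outer membrane protein that takes part in mitochondrial fission and contact with the endoplasmic reticulum, stood at 45.6, 43.9 and 44.5 CPM in HFHC livers, against 54.8, 47.3 and 52.9 CPM in Chow livers. The diets did not overlap (-0.21 ± 0.08, edgeR adjusted p = 0.160). Slc25a53, a carrier of unknown substrate, was low, and averaged 1.30 ± 0.0712 CPM in the HFHC livers and 1.94 ± 0.313 CPM in the Chow livers, without overlap (-0.58 ± 0.20, adjusted p = 0.125). Slc25a45 stood at 25.3, 25 and 29.1 CPM in HFHC livers, against 17.6, 26.2 and 19.3 CPM in Chow livers. Chow replicate 8 lay within the HFHC range, and without it the change of 0.33 ± 0.14 (adjusted p = 0.216) became 0.52 and passed (0.0219). Slc25a34 (0.05 ± 0.18) and Slc25a35 (-0.09 ± 0.28) overlapped between the diets and changed sign in some fits without 1 library. Slc25a35 shares 31.3% of its exonic bases with Rangrf, a coding gene transcribed the other way.

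**Figure D3:**
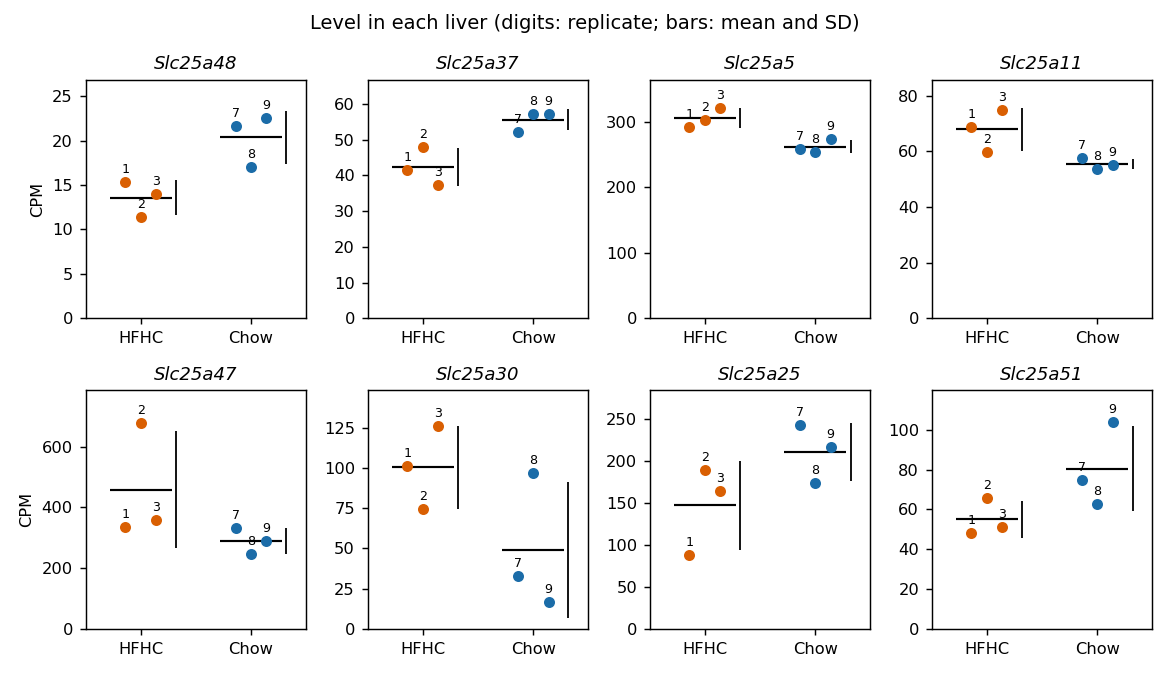
Level in CPM of 8 carriers in each liver, HFHC left and Chow right, with replicate numbers beside the points, the mean as a horizontal bar and the SD as a vertical one. The diets are apart for Slc25a48, Slc25a37, Slc25a5, Slc25a11 and Slc25a47 and overlap for Slc25a30, Slc25a25 and Slc25a51. Chow replicate 8 stands out for Slc25a30, HFHC replicate 1 for Slc25a25 and Chow replicate 9 for Slc25a51.

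Slc25a30, a carrier related to the uncoupling proteins and first described in kidney, had the largest log2 fold change among the tested carriers and, on the log2 scale, the largest SD within diets. It stood at 101, 74.5 and 126 CPM in HFHC livers, against 32.6, 96.7 and 17.0 CPM in Chow livers. Chow replicate 8 lay above HFHC replicate 2, and the other 2 Chow livers lay below every HFHC liver. The log2 fold change was 1.04 ± 0.50 (edgeR adjusted p = 0.259). Without Chow replicate 8 it was 2.02 and passed (adjusted p = 0.0043), and with limma-voom sample weights it was 1.61 (0.0494). Without Chow replicate 9 it was 0.64. The SD of log2 CPM within diets was 0.93, above that of 99.7% of the 7969 tested genes with at least 10 CPM on average. The related carriers Slc25a14 (0.09 ± 0.18) and Slc25a27 (-0.10 ± 0.30) were at 0.795 to 2.38 CPM in all livers, and neither was called.

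Slc25a47 had the largest SD in CPM among the HFHC livers (192 CPM). It stood at 336, 679 and 358 CPM in HFHC livers, against 331, 245 and 289 CPM in Chow livers, so the diets did not overlap, but HFHC replicates 1 and 3 lay just above Chow replicate 7. The change of 0.67 ± 0.24 did not pass (edgeR adjusted p = 0.142) and was 0.27 without HFHC replicate 2. Its SD within diets was above that of 98% of the 7969 genes, and its counts were not whole in any library.

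Slc25a29 lies on the minus strand of chromosome 12 at 108825873 to 108835883, and Slc25a47 on the plus strand at 108836046 to 108856815, so in GENCODE M21 their outer starts are 163 bases apart, facing away from each other. In RefSeq, from which the printed windows come, the start of Slc25a47 is 15253 bases from that of Slc25a29. The level of Slc25a29 was 1.24, 2.05 and 1.21 CPM in HFHC livers, against 1.48, 1.05 and 1.17 CPM in Chow livers. HFHC replicate 2 was highest for both genes, and the diets overlapped for Slc25a29 (0.28 ± 0.27, adjusted p = 0.597). Per kilobase Slc25a29 stood at 0.759 ± 0.241 in HFHC and 0.624 ± 0.112 in Chow, beside the 290 and 182 of Slc25a47 given above. The log2 ratio of Slc25a47 to Slc25a29 (CPM, not per length) was 8.22 ± 0.15 in HFHC and 7.87 ± 0.07 in Chow, without overlap (exact permutation p = 0.1, adjusted p = 0.3 over the 6 pairs). Over those 6 pairs the ratios of the diets were apart in 2, the mitoferrins and these neighbours. The share among other gene pairs was not computed, so this count has no background. Among single genes tested, the diets were apart in 27.8%.

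**Figure D4:**
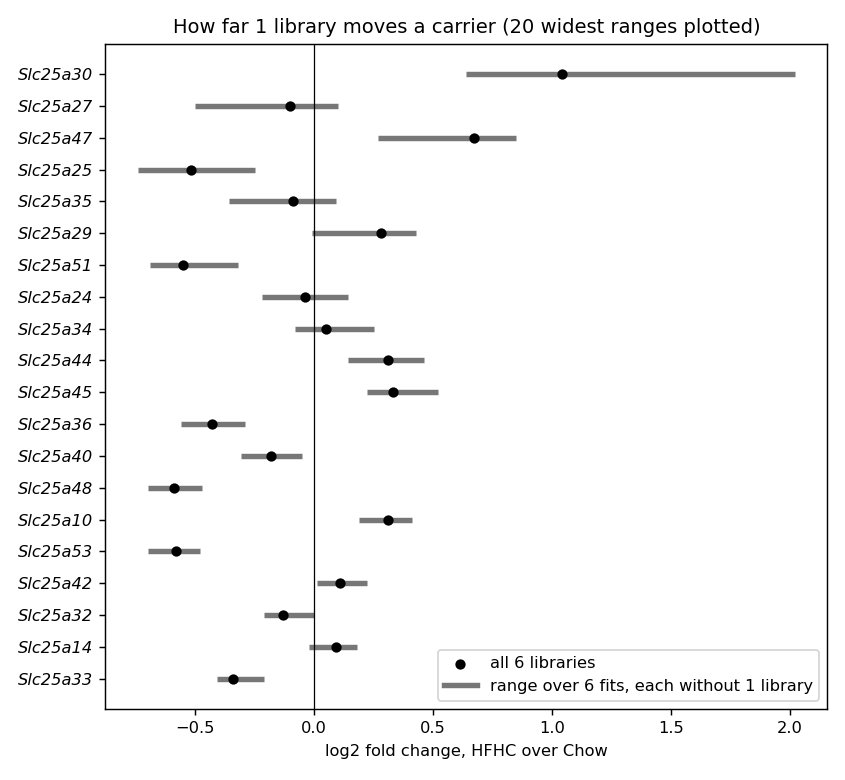
Log2 fold change of HFHC over Chow with all 6 libraries (points) and its range over the 6 fits that each leave out 1 library (bars), for the 20 carriers with the widest ranges among the 36 in the plot of changes. Slc25a30 runs from 0.64 to 2.02, Slc25a47 from 0.27 to 0.85 and Slc25a48 from -0.70 to -0.47.

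Several features that the choice of genes did not use were set beside the changes. The carriers lie on 18 chromosomes, 5 on chromosome 11 and 4 on the X chromosome. Across the 37 tested carriers the log2 fold change had a rank correlation with the GC content of the transcript of 0.42. It was 0.23 across all 14896 tested genes, of which 14866 had a known GC content and the rest were ranked lowest. These are descriptions across genes measured in the same libraries, with no test. With trends on GC content and length taken out of each library, 3 carriers turned sign, no carrier moved by more than 0.15 on the log2 scale, and Slc25a23, Slc25a37 and Slc25a48 were called lower.

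The surroundings of the carriers were read from lists of related genes, with the called share of 6.67% over all genes as background. In the list of shuttle and citrate-malate enzymes, 5 of 14 rose and 1 fell. Me1, the cytosolic malic enzyme, rose to 353 ± 54.6 CPM in HFHC livers, against 121 ± 44.4 CPM in Chow livers (1.54 ± 0.24, edgeR adjusted p = 0.00774), and its call held in each fit without 1 library. The mitochondrial isocitrate dehydrogenase Idh2 fell to 59.9 ± 5.86 CPM in HFHC livers, against 81.0 ± 8.70 CPM in Chow livers (-0.43 ± 0.10, adjusted p = 0.0394). Acly, which splits exported citrate (0.93 ± 0.21, adjusted p = 0.0336), and Pcx, the pyruvate carboxylase (0.61 ± 0.11, 0.0156), rose, as did Gpd1 (0.53 ± 0.12, 0.0348) and Gpd2 (0.68 ± 0.17, 0.0469) of the glycerophosphate shuttle. Without Chow replicate 7 the calls of Acly (0.119), Pcx (0.0755), Gpd1 (0.134), Gpd2 (0.158) and Idh2 (0.0923) were lost, and likewise without Chow replicate 9 (0.0541, 0.0556, 0.116, 0.146 and 0.131 in the same order). Without HFHC replicate 1 those of Acly (0.101), Gpd1 (0.0763), Gpd2 (0.0691) and Idh2 (0.106) were lost. The same happened without HFHC replicate 2 to Acly (0.0951), Gpd1 (0.106) and Gpd2 (0.135), and without HFHC replicate 3 to Gpd1 (0.0506), Gpd2 (0.109) and Idh2 (0.0971).

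None of 16 genes of the import machinery for carriers was called, and 15 had a log2 fold change above 0, with a median of 0.13 (49.5% of all tested genes were above 0). Timm13, a chaperone of the space between the membranes, had the smallest p (0.29 ± 0.09, edgeR adjusted p = 0.0999). Among 15 other transporters of the inner membrane, Abcb8 rose to 31.4 ± 2.57 CPM in HFHC livers, against 24.4 ± 0.319 CPM in Chow livers (0.36 ± 0.09, adjusted p = 0.0377). That call was lost without HFHC replicate 1 (0.108) or 2 (0.114) and without Chow replicate 7 (0.140), 8 (0.0569) or 9 (0.118). Of 30 nuclear-encoded subunits of the respiratory chain 1 rose, Uqcrq of complex III (0.40 ± 0.08, adjusted p = 0.0192), a call lost without HFHC replicate 1 (0.0560) or Chow replicate 7 (0.0569) or 9 (0.0577). None was called among 15 subunits of ATP synthase (median 0.09), 13 regulators of mitochondrial biogenesis (median -0.04), 3 outer membrane channels or the 3 tested family members with other names, Ucp2, Mtch1 and Mtch2. Of those 3, Ucp2 had the smallest p (0.31 ± 0.11, adjusted p = 0.121). Of the 4 Slc25a genes left out of the choice, the citrate carrier Slc25a1 (0.40 ± 0.09, adjusted p = 0.0278) and the carnitine carrier Slc25a20 (0.48 ± 0.09, 0.0194) rose, and Slc25a13 and Slc25a15 were not called.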

How the data were processed

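Per the labels' protocols, RNA was extracted with a miRNeasy kit, libraries were stranded and depleted of ribosomal RNA, and a NextSeq500 read them as pairs. Per the submitters' processing notes, STAR 2.7.3a aligned reads to mm10 and Partek 9 was used. The deposited values are expected counts (estimated counts) per gene, not normalized, and 22.4% were not whole (tolerance 0.01). How reads were counted and whether strand was used: not given in the sources used here. Counts were rounded and filtered with filterByExpr (minimum count 10), which left 14896 genes. edgeR 4.0.16 (R 4.3.3) fitted diet alone, with TMM factors and the quasi-likelihood F test. The SE is the log2 fold change divided by the square root of F. DESeq2 1.42.0 and limma 3.58.1 served as alternatives. Coordinates are those of the table with 1 base taken off the end, as GENCODE M21 (GRCm38) gives them, and 19892 rows matched it by coordinates. The labels give separate littermates and no batch, so p values rest on the spread between these mice, and floors cover counting error alone.

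Genes named with values are the called carriers, the 6 most abundant, the one with the smallest p in each role group and those below the filter, with up to 4 genes from each list. The other carriers, Gpd1 and Gpd2 were named after their values were seen. The carriers, roles and lists were chosen with earlier results of these data known. Marker lists not printed above gave 0 calls for stellate (7 tested), endothelial (6), cholangiocyte (5), lymphocyte (3) and neutrophil (1) genes. Of 8 adipocyte and muscle markers 2 were in the table, and Cfd (0.827 ± 0.754 CPM in HFHC, 0.0126 ± 0.0218 CPM in Chow, edgeR adjusted p = 0.0226) was called higher, though not without Chow replicate 7 (0.0885) or 9 (0.0739). The values of 1 tested carrier and of 1 marker are not reported here; both stay in the counts.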

Additional observations from a re-analysis of the deposited data

How the results depend on the processing

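Of 37 carriers, 30 stayed on the same side of the threshold in all 14 alternatives. Carriers called lower numbered 2, but 3 with DESeq2, limma-voom sample weights or the GC and length trends taken out, 1 with upper-quartile size factors or without the count filter, 0 at an adjusted p threshold of 0.01, and 0 to 2 in the fits without 1 library. Carriers called higher numbered 0, but 1 with limma-voom sample weights and 0 to 2 without 1 library. Among all genes 503 were higher and 491 lower. Sample weights gave 790 lower, the 0.01 threshold gave 166 higher and 116 lower, and leaving out 1 library gave 207 to 527 higher and 154 to 553 lower. The 8 sign changes in fits without 1 library (such as Slc25a24 and Slc25a27) concerned carriers that were never called. No paired analysis was possible because the diets share no replicate number.

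At the 0.01 threshold, 1 shuttle enzyme was higher and 0 lower, and 0 genes were called among other transporters, respiratory chain subunits and cell type markers (2 higher and 0 lower at 0.05). Transporters called lower numbered 2 with DESeq2 and 1 with sample weights. Outer membrane channels had 1 called higher with GC and length trends taken out, and biogenesis regulators 1 called lower with sample weights. Markers called higher were 4 with sample weights and 1 with the GC and length trends taken out. Markers called lower were 2 with DESeq2, 1 with limma-voom, 2 with sample weights and 2 with the trends taken out. Without 1 library, shuttle enzymes ran from 1 to 5 higher and 0 to 1 lower, transporters from 0 to 1 higher and 0 to 2 lower, respiratory chain subunits from 0 to 1 higher, and markers from 0 to 3 higher and 0 to 1 lower. The cause of these shifts was not tested. Depth limits Slc25a2, Slc25a31 and Slc25a43.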
